A study of Caenorhabditis elegans with 20 samples.

Results

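The transcriptomes of curcumin-treated *ahr-1(ju145)* and curcumin-treated wild-type worms were compared on Affymetrix gene arrays. Wild-type worms were strain N2 and *ahr-1(ju145)* worms were strain CZ2485, both raised on plates with 100 µM curcumin from the egg to day 3 of age. Of the 20 arrays of the study 9 of the 10 with curcumin were compared, 5 of wild-type and replicates 1 to 4 of *ahr-1(ju145)*. The remaining curcumin array of *ahr-1(ju145)*, replicate 5, did not enter the fit, since the study's methods set it aside for its quality, and its values are given separately. The same strains with 0.1% DMSO, the vehicle of curcumin, served as a second strain comparison of 5 arrays against 5. It shares no array with the first, but both took their estimate of the spread from the same fit of 19 arrays. Each array held the RNA of an independent pool of whole worms. The mutant is 1 strain that carries 1 allele, so that the allele and any other difference between the strains cannot be told apart. In whole worms, fewer cells of a type and less RNA per cell cannot be told apart either.

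AHR-1 is the nematode form of the aryl hydrocarbon receptor, a transcription factor of the bHLH-PAS family that binds DNA together with its partner AHA-1. In mammals the receptor is best known for inducing enzymes that break down foreign compounds, and plant polyphenols such as curcumin are among the molecules that act on it. In *C. elegans* it is known above all for its part in the development of neurons, among them motor neurons of the head, oxygen-sensing neurons and touch neurons.

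The values are log2 RMA values, on which a difference of 1 is a 2-fold change. A probe set was called when its strain difference had an adjusted p under 0.1 in a limma fit of the group means of 19 arrays, with Benjamini-Hochberg adjustment over all 29317 probe sets. Under curcumin, 51 probe sets were higher in *ahr-1(ju145)* and 111 were lower, which is 0.174% and 0.379% of all probe sets. A single gene symbol was carried by 28 of the higher and 95 of the lower probe sets (0.0955% and 0.324% of all). The size of the difference was 1 or more in 18 higher and 43 lower probe sets, and the median was 0.71 over the higher and −0.89 over the lower ones. The median over all probe sets was 0.01. The arrays of the strains did not overlap for 48 of the 51 higher and 97 of the 111 lower probe sets, against 1.42% and 1.73% of all probe sets with *ahr-1(ju145)* entirely above or below.

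The counts rested on few arrays. Leaving out replicate 3 of curcumin-treated wild-type gave 268 lower probe sets, while leaving out its replicate 1, 2 or 5 gave 22, 20 or 29. Without replicate 1, 2, 3 or 4 of *ahr-1(ju145)* on curcumin, 16, 45, 20 or 71 probe sets were lower. The higher probe sets numbered 26 to 74 in these fits, with the fewest without replicate 1 of wild-type. Counts also fell, to 26 higher and 15 lower, in a fit of the 9 curcumin arrays alone. With a term for the replicate number, which the main fit left out, 121 were higher and 247 lower. Of the 50 called genes that the naming rule selected, 6 kept their call in all alternatives that held them, namely *nhj-1*, *F56A4.3*, *B0511.11*, *nlp-20*, *Y62H9A.12* and *B0350.71*, with 22 alternatives for each but *B0350.71*, which is absent where dim probe sets were left out. Part of that rule required that the arrays of the strains did not overlap, so these genes do not stand for all calls.

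**Figure D1:**
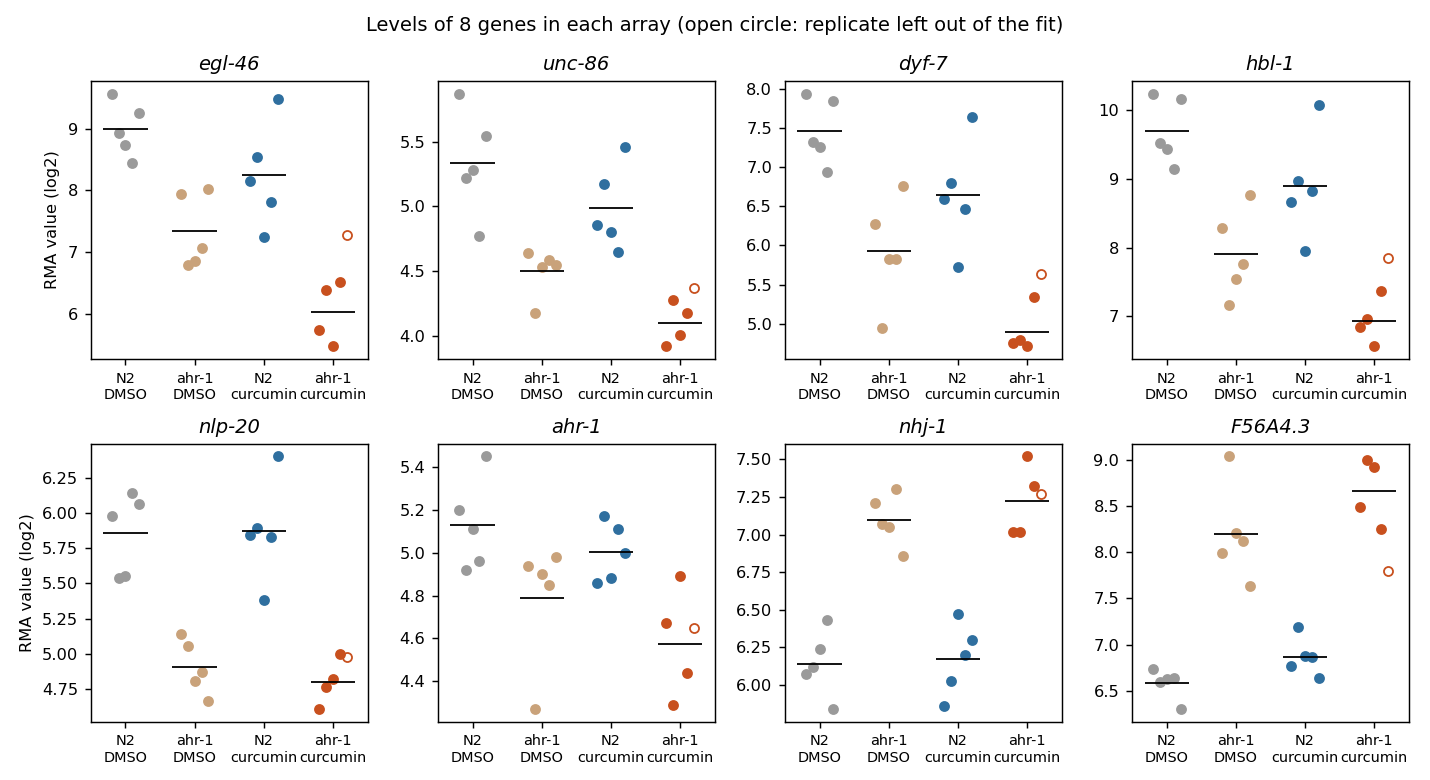
Log2 RMA values of 8 genes in each array of the 4 groups, with a line at each group mean and an open circle for the replicate left out. For *egl-46*, *unc-86*, *dyf-7*, *hbl-1* and *nlp-20* the 4 fitted *ahr-1(ju145)* arrays with curcumin lie below all 5 wild-type arrays with curcumin, for *nhj-1* and *F56A4.3* above them, and for *ahr-1* the groups overlap. The rule that named the genes of largest change required groups that do not overlap.

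The transcript of *ahr-1* itself was measured first. With curcumin its values were 4.86, 5.17, 4.88, 5.11 and 5.00 in wild-type and 4.67, 4.29, 4.89 and 4.44 in *ahr-1(ju145)*. Replicate 3 of *ahr-1(ju145)* lay above 2 of the wild-type arrays, so the groups overlapped. The difference was −0.43 (SE 0.15, n = 4 and 5) and was not called (limma, adjusted p = 0.307), and it was −0.34 (SE 0.14) with DMSO. The *ahr-1* probe set thus did not separate the strains, and none of the sources used here says whether it covers the altered part of the gene. The partner gene *aha-1* differed by −0.09 (SE 0.09, adjusted p = 0.84) under curcumin and by −0.31 (SE 0.08, adjusted p = 0.0796) with DMSO. Among the 6 measured genes of the list of bHLH-PAS factors and their Hsp90 and p23 chaperones, 0 were called under curcumin, against 0.553% of all probe sets. The list median was −0.04.

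Some transcription factors that specify neurons were lower. Of 50 such genes measured, 4 were called lower (*egl-46*, *unc-86*, *ttx-1* and *sox-2*) and 0 higher, which is 8% of the list against 0.379% of all probe sets. The list median was −0.36 against 0.01 over all probe sets, 44 of the 50 genes lay below 0, where 46.4% of all probe sets did, and 29 were lower at an unadjusted p under 0.05, against 4.54% of all probe sets. Of the list, 16 genes were called lower without replicate 3 of curcumin-treated wild-type and 1 without its replicate 1, 2 or 5 or without replicate 1 or 3 of *ahr-1(ju145)*.

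The largest decrease of any named gene was that of *egl-46*, which encodes a zinc-finger protein that acts in the differentiation of touch and other neurons. Its values with curcumin were 8.16, 8.55, 7.25, 7.81 and 9.48 in wild-type and 5.73, 6.39, 5.47 and 6.52 in *ahr-1(ju145)*. The groups did not overlap, and the replicate left out had 7.27, just above the lowest wild-type array. The difference was −2.22 (SE 0.38, adjusted p = 0.0153), or 4.67-fold lower, and its adjusted p reached 0.121 in a fit of the 9 arrays alone.

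The POU homeobox gene *unc-86*, a selector of touch receptor and other neurons, had 4.86, 5.17, 4.80, 4.65 and 5.46 in wild-type and 3.92, 4.28, 4.01 and 4.18 in *ahr-1(ju145)*. All *ahr-1(ju145)* arrays lay below all wild-type arrays, the replicate left out with 4.37 included. The difference was −0.89 (SE 0.18, adjusted p = 0.0534), and the adjusted p ranged from 0.00457 to 0.159 over the alternatives, with the call lost without replicate 1, 2 or 5 of wild-type or replicate 1 or 3 of *ahr-1(ju145)*. The homeobox gene *ttx-1*, which specifies the AFD thermosensory neuron, differed by −0.79 (SE 0.18, adjusted p = 0.0872), and *sox-2*, a neural progenitor factor, by −0.77 (SE 0.17, adjusted p = 0.0772). Both lost their call without replicate 1, 2 or 5 of wild-type or without any 1 of the 4 *ahr-1(ju145)* arrays, with adjusted p up to 0.263 for *ttx-1* and 0.186 for *sox-2*.

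Further members of the list had differences of similar size without a call. The proneural gene *ngn-1* differed by −1.09 (adjusted p = 0.101), the homeobox genes *unc-42* by −0.97 (adjusted p = 0.11) and *ceh-34* by −0.75 (adjusted p = 0.128), and *zag-1* by −0.89 (adjusted p = 0.167). At the other end, *mec-3*, the LIM homeobox gene of touch neurons, differed by 0.19 (adjusted p = 0.668) and the homeobox gene *unc-4* by 0.19 (adjusted p = 0.696).

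The genes of dendrite branching followed a split pattern. Of 15 genes listed for the branched PVD sensory neuron, 3 were called lower (*egl-46*, *dyf-7* and *dma-1*) and 1 higher (*tiam-1*). The share called was 26.7% of the list, against 0.553% of all probe sets, and the list median was −0.12. Of the 3, *egl-46* is also in the list of neuron fate factors and *dyf-7* in that of apical matrix genes below. The lower call found in this list alone is *dma-1*. The lower calls in this list numbered 1 to 5 when 1 array was left out, with 5 without replicate 3 of wild-type and 1 without its replicate 1 or 2 or without replicate 1, 2 or 3 of *ahr-1(ju145)*, and *tiam-1* lost its call without replicate 3 of *ahr-1(ju145)*. The gene *dyf-7* encodes a zona pellucida domain protein that anchors dendrite tips, and it is listed for that role rather than for PVD branching. With curcumin it had 6.60, 6.80, 5.72, 6.46 and 7.64 in wild-type and 4.75, 4.79, 4.71 and 5.34 in *ahr-1(ju145)*, without overlap. The difference was −1.75 (SE 0.34, adjusted p = 0.0422). The receptor gene *dma-1*, whose product guides PVD dendrites, had 5.65, 5.71, 5.19, 5.49 and 6.92 in wild-type and 4.40, 4.17, 4.57 and 4.63 in *ahr-1(ju145)*. The difference was −1.35 (SE 0.30, adjusted p = 0.079), and the replicate left out, with 5.14, also lay below all wild-type arrays. The call of *dyf-7* was lost without replicate 1 or 2 of wild-type or replicate 1, 2 or 3 of *ahr-1(ju145)*, and that of *dma-1* also without replicate 5 of wild-type or replicate 4 of *ahr-1(ju145)*.

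The opposite direction was measured for *tiam-1*, an activator of the GTPase Rac that acts downstream of dendrite receptors. Its values were 5.25, 5.11, 5.35, 5.16 and 5.25 in wild-type and 5.70, 5.73, 5.75 and 5.56 in *ahr-1(ju145)*, a narrow spread within each group. The difference was 0.46 (SE 0.08, adjusted p = 0.0253) under curcumin and 0.19 (SE 0.08, adjusted p = 0.361) with DMSO. The other ligands and receptors of the PVD system stayed near 0, with −0.12 for *mnr-1*, −0.18 for *lect-2*, 0.04 for *sax-7* and −0.0033 for *hpo-30*, and 0 of these 4 were called.

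Axon guidance genes and cadherins leaned downward with few calls. Of 45 guidance genes measured, 37 lay below 0, where 46.4% of all probe sets did, and the median was −0.18. Of the 45, 1 was called (2.22%, against 0.553% of all probe sets), *max-1*, a gene of motor axon guidance (−0.51, SE 0.10, adjusted p = 0.0416). The count was 9 without replicate 3 of wild-type and 0 without its replicate 2 or without replicate 2 or 3 of *ahr-1(ju145)*. Among genes without a call were the planar polarity gene *prkl-1* with −0.73 (adjusted p = 0.113), the plexin gene *plx-2* with −0.71 (adjusted p = 0.253), the netrin gene *unc-6* with −0.53 (adjusted p = 0.223) and its receptor gene *unc-5* with −0.47 (adjusted p = 0.147). Of 12 cadherin genes the median was −0.27 and 1 was called, 8.33% of the list against 0.553% of all probe sets. It was the Flamingo cadherin gene *fmi-1* (−1.08, SE 0.25, adjusted p = 0.0872). Its values were 6.15, 6.60, 5.89, 6.15 and 6.87 in wild-type and 5.18, 5.6, 4.7 and 5.51 in *ahr-1(ju145)*, and its call held when replicate 3 of wild-type was left out but not when any other of the 9 arrays was.

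Genes of the mature nervous system had medians near 0. The 32 measured genes of synapses and neurotransmitters had a median of 0.03 and lay between −0.19 and 0.19, with 0 called and a lowest adjusted p of 0.622. The 14 genes of touch receptor neurons (median 0.00295), the 11 of GABA neurons (median −0.01), the 42 of cilia and intraflagellar transport (median −0.05) and the 7 soluble guanylate cyclases (median −0.01) likewise had 0 called genes. Of all probe sets 0.553% were called, and at that share lists of this size can hold 0 calls. At an unadjusted p under 0.05, 0 synaptic, 0 touch receptor and 0 cyclase genes differed, 1 GABA neuron gene was lower, and of the cilium genes 1 was higher and 2 were lower. Over all probe sets 4.29% were higher and 4.54% lower at that threshold. The pan-neuronal markers had a mean of 7.26 to 7.35 in the *ahr-1(ju145)* arrays and 7.21 to 7.35 in the wild-type arrays.

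Of 109 neuropeptide genes 1 was called, 0.917% of the list against 0.553% of all probe sets. It was *nlp-20*, which had 5.84, 5.89, 5.38, 5.83 and 6.40 in wild-type and 4.61, 4.77, 4.82 and 5.00 in *ahr-1(ju145)*. The groups did not overlap, and the replicate left out had 4.98. The difference was −1.07 (SE 0.17, adjusted p = 0.00674), with 0.0719 as the highest adjusted p over the alternatives. The list median was −0.01.

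**Figure D2:**
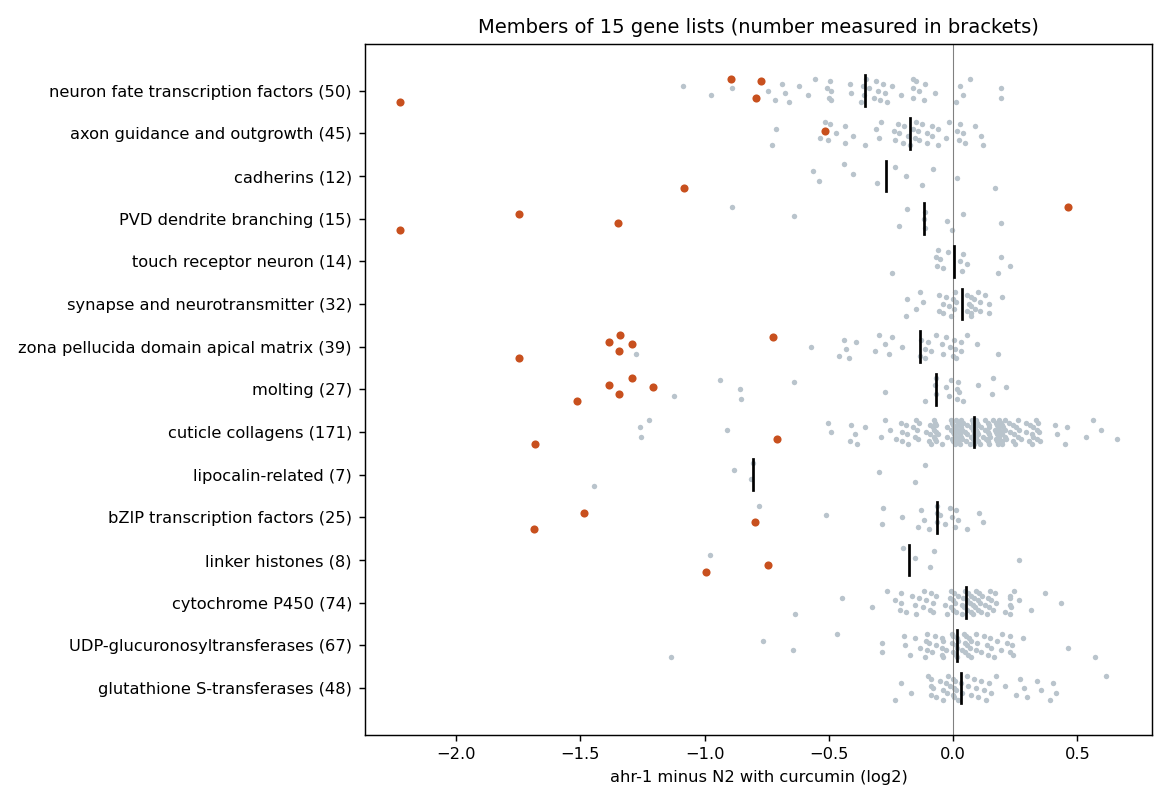
Strain difference under curcumin, on the log2 scale, of each measured member of 15 gene lists, with called genes in orange, the others in grey and a black line at the list median. Neuron fate genes, apical matrix genes and lipocalin-related genes reach far below 0, while synapse, touch receptor and detoxification genes lie around 0.

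Some genes of the apical extracellular matrix and of molting were lower as well. The epidermis of nematodes secretes a cuticle, and a transient sheath of zona pellucida domain proteins covers it while a new cuticle is built in the embryo and at each molt. Of 39 measured genes of such matrix proteins 6 were called lower (*dyf-7*, *noah-2*, *fbn-1*, *cutl-28*, *noah-1* and *cutl-2*) and 0 higher. That is 15.4% of the list against 0.379% of all probe sets, and the median was −0.14. Of 27 molting genes 5 (18.5%) were lower, namely *mlt-11*, *noah-2*, *fbn-1*, *noah-1* and *sym-1*, of which 3 are in both lists, and the median was −0.07. Without replicate 3 of wild-type 8 matrix and 10 molting genes were called, and without replicate 3 of *ahr-1(ju145)* 0 in both lists. Without replicate 1, 2 or 5 of wild-type or replicate 1 or 2 of *ahr-1(ju145)* the counts were 1 or 2.

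The matrix gene *fbn-1*, similar to fibrillin, had 7.79, 7.93, 7.03, 7.29 and 8.26 in wild-type and 6.33, 6.57, 5.82 and 6.54 in *ahr-1(ju145)*. The difference was −1.34 (SE 0.25, adjusted p = 0.026). The sheath gene *noah-2* differed by −1.38 (SE 0.29, adjusted p = 0.0637) and *noah-1* by −1.29 (SE 0.29, adjusted p = 0.0802), both without overlap. The protease inhibitor gene *mlt-11* differed by −1.51 (SE 0.34, adjusted p = 0.0772) but overlapped, since replicate 3 of wild-type had 6.66 and replicate 4 of *ahr-1(ju145)* had 6.78.

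Cuticle collagens as a family did not share this direction. Of 171 measured collagen genes 52 lay below 0, where 46.4% of all probe sets did, and the median was 0.08. Yet 2 genes named for the short, dumpy body of their mutants were called lower, 1.17% of the list against 0.379% of all probe sets. They were *dpy-17* (−1.68, SE 0.34, adjusted p = 0.0488) and *dpy-7* (−0.71, SE 0.15, adjusted p = 0.0693). The values of *dpy-17* were 8.63, 8.91, 7.79, 8.43 and 9.73 in wild-type and 6.57, 7.5, 6.58 and 7.41 in *ahr-1(ju145)*. Without replicate 3 of wild-type 6 collagen genes were lower, and without its replicate 2 or 5 or without replicate 1 or 3 of *ahr-1(ju145)* 0 were. The astacin protease gene *hch-1*, whose product digests the eggshell at hatching, had 8.52, 8.70, 7.72, 8 and 9.63 against 6.36, 7.07, 6.36 and 7.01 (−1.81, SE 0.36, adjusted p = 0.0437). It was the single called gene of 39 astacins (2.56%, against 0.553% of all probe sets), whose median was 0.03. The call of *hch-1* was lost without replicate 1 or 2 of wild-type or replicate 1 or 3 of *ahr-1(ju145)*. The hedgehog-related gene *wrt-10* (−1.28, SE 0.28, adjusted p = 0.0706) was the single called gene of 57 in its family, whose median was 0.00286. That is 1.75% of the family, against 0.553% of all probe sets. Its call was lost without replicate 1, 2 or 5 of wild-type or replicate 1, 2 or 3 of *ahr-1(ju145)*.

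All 7 measured lipocalin-related genes lay below 0, where 46.4% of all probe sets did, with a median of −0.80. Under curcumin 0 of the 7 were called, against 0.553% of all probe sets. Lipocalins are secreted carriers of lipids, and several of this family act in the apical matrix. The gene *lpr-4* had 5.13, 5.12, 4.25, 4.76 and 6.44 in wild-type and 4.43, 4.09, 4.17 and 4.35 in *ahr-1(ju145)*, so that replicate 3 of wild-type fell within the *ahr-1(ju145)* range and replicate 5 stood above the rest. The difference was −0.88 (SE 0.33, adjusted p = 0.384) for *lpr-4*, −0.81 (SE 0.34, adjusted p = 0.468) for *lpr-5* and −1.44 (adjusted p = 0.138) for *lpr-3*. With DMSO, 4 of the 7 were called lower, and the differences of *lpr-4* and *lpr-5* there were −1.88 and −1.66.

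Several regulators of developmental timing and transcription were lower as well. The zinc-finger gene *hbl-1*, which holds back the transition to later larval fates, had 8.66, 8.97, 7.95, 8.83 and 10.07 in wild-type and 6.84, 6.96, 6.56 and 7.37 in *ahr-1(ju145)*. The difference was −1.96 (SE 0.36, adjusted p = 0.0253), or 3.9-fold lower, and the replicate left out had 7.85, below all wild-type arrays. The call was lost without replicate 3 of *ahr-1(ju145)* and in the fit of the 9 arrays alone, with adjusted p up to 0.12. The gene *hbl-1* was the single called one of 12 measured heterochronic genes, 8.33% of the list against 0.553% of all probe sets. In the same list *lin-14* differed by 0.17 and *lin-28* by −0.05.

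Of 25 bZIP factors 3 were called lower, 12% of the list against 0.379% of all probe sets. They were *atf-2*, *ces-2*, which acts in the programmed death of a neuron, and *zip-7*. With curcumin *atf-2* had 5.91, 6.07, 5.36, 6.45 and 7.85 in wild-type and 4.25, 4.76, 4.76 and 4.79 in *ahr-1(ju145)*, a difference of −1.69 (SE 0.37, adjusted p = 0.0739). Its call was lost in 10 of 22 alternatives. The difference was −1.49 (SE 0.26, adjusted p = 0.0177) for *ces-2*, which lost its call in 1 alternative, and −0.80 (SE 0.19, adjusted p = 0.094) for *zip-7*. When 1 array was left out, 1 to 3 bZIP genes were called, with 3 without replicate 3 of wild-type and 2 without its replicate 4. The stress regulator genes *skn-1* and *atf-7*, of the same family, differed by −0.0064 and 0.02.

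Of 8 linker histone genes 2 were called lower, *hil-3* (−0.995, SE 0.205, adjusted p = 0.0547) and *hil-2* (−0.74, SE 0.17, adjusted p = 0.0888). That is 25% of the list against 0.379% of all probe sets, and the list median was −0.18. The values of *hil-3* were 9.85, 9.90, 9.13, 9.42 and 10.44 in wild-type and 8.55, 8.96, 8.58 and 8.92 in *ahr-1(ju145)*. Both calls were lost without replicate 1, 2 or 5 of wild-type or replicate 1 or 3 of *ahr-1(ju145)*. A further linker histone gene, *his-24*, chosen after its values had been seen, was also called (−0.84, adjusted p = 0.0448). Probe sets annotated with several *his* genes, which lie in clusters on more than 1 chromosome, were examined for the same reason. Of 44 such probe sets with distinct values 3 were called lower and 0 higher, with a median of −0.197. The called ones list 14 to 16 *his* genes each, so no single gene can be named, and differed by −0.92 (SE 0.16, adjusted p = 0.0202), −0.27 (SE 0.06, adjusted p = 0.0872) and −0.27 (SE 0.06, adjusted p = 0.0872).

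Other called regulators outside the lists were chosen for description after their values had been seen. They were the FoxA gene *pha-4* of the pharynx (−0.63, adjusted p = 0.0589), the Prospero gene *pros-1* (−0.79, adjusted p = 0.0843), the serum response factor gene *unc-120* of muscle (−0.81, adjusted p = 0.0763), the posterior Hox gene *nob-1* (−0.35, adjusted p = 0.0448), the Iroquois gene *irx-1* (−0.65, adjusted p = 0.0879) and the histone demethylase gene *jmjd-3.1* (−0.97, adjusted p = 0.0422). Cell surface and matrix genes among the lower calls included the immunoglobulin gene *syg-2* of synapse placement (−1.11, adjusted p = 0.0448), the agrin gene *agr-1* (−0.75, adjusted p = 0.0872), the laminin gene *lam-3* (−0.97, adjusted p = 0.0763) and the apical junction gene *ajm-1* (−0.34, adjusted p = 0.0589). The neuronal splicing regulator gene *unc-75* differed by −1.1 (adjusted p = 0.0872).

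A pair of genes with a sequence name alone had the lowest adjusted p among the lower genes. The gene *B0350.71*, annotated as a non-coding RNA, had 4.34, 4.6, 3.95, 4.69 and 5.17 in wild-type and 3.03, 3.32, 2.81 and 3 in *ahr-1(ju145)*, a difference of −1.51 (SE 0.19, adjusted p = 0.000385). The gene *Y62H9A.12*, annotated as protein-coding, had 5.87, 6.1, 6.09, 5.61 and 5.92 against 4.85, 4.69, 4.23 and 4.41, a difference of −1.38 (SE 0.18, adjusted p = 0.000532). In both, the replicate left out, with 3.19 and 4.38, fell within the range of the other *ahr-1(ju145)* arrays.

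In most of the lower probe sets the same wild-type array was the lowest, and likewise the same one the highest. Among the 5 wild-type arrays with curcumin, replicate 3 was the lowest in 80 of the 111 lower probe sets (72.1%) and replicate 5 the highest in 89 (80.2%), against 19.8% and 23.2% of all probe sets. Among the 5 *ahr-1(ju145)* arrays with curcumin, the replicate left out was the highest in 70 (63.1%), against 23.7% of all probe sets. The mean over the 95 lower genes was 6.88, 7, 6.45, 6.68 and 7.47 in wild-type and 5.84, 6.04, 5.78 and 6.03 in *ahr-1(ju145)*, with 6.34 in the replicate left out. Each fitted *ahr-1(ju145)* array was below each wild-type array, which the choice of these genes fixes in part, and replicate 5 of wild-type stood furthest from them.

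Stage and tissue markers were measured beside this pattern. The mean of 34 zygotic embryo markers was 5.26, 5.19, 5.07, 5.10 and 5.36 in wild-type, with its lowest value in replicate 3 and its highest in replicate 5 as for the lower genes, and 5.17, 5.25, 5.14 and 5.16 in *ahr-1(ju145)*. The groups overlapped, the list median was 0.00456, and 0 of these markers were called. The list was not made to mark late embryos or molts, so it does not show whether their share was alike. With that mean as a covariate 325 probe sets were lower and 102 higher, and 17 neuron fate genes were called lower. The means of 16 muscle markers were 9.39, 9.48, 9.63, 9.64 and 9.22 in wild-type and 9.74, 9.63, 9.72 and 9.67 in *ahr-1(ju145)*, and all 16 lay above 0 with a median of 0.22 and 0 calls. The means of 9 epidermis and seam markers were 6.06 to 6.48 in wild-type and 5.95 to 6.11 in *ahr-1(ju145)*, with 1 of 9 called lower, *dpy-7*. The means of 30 germline and oocyte markers were 11.259 to 11.3 and 11.308 to 11.318, a small shift without overlap, and 0 of them were called. Sperm, yolk and intestine markers overlapped and had 0 calls. The part of these markers in the strain differences was not tested, other than by the covariate.

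**Figure D3:**
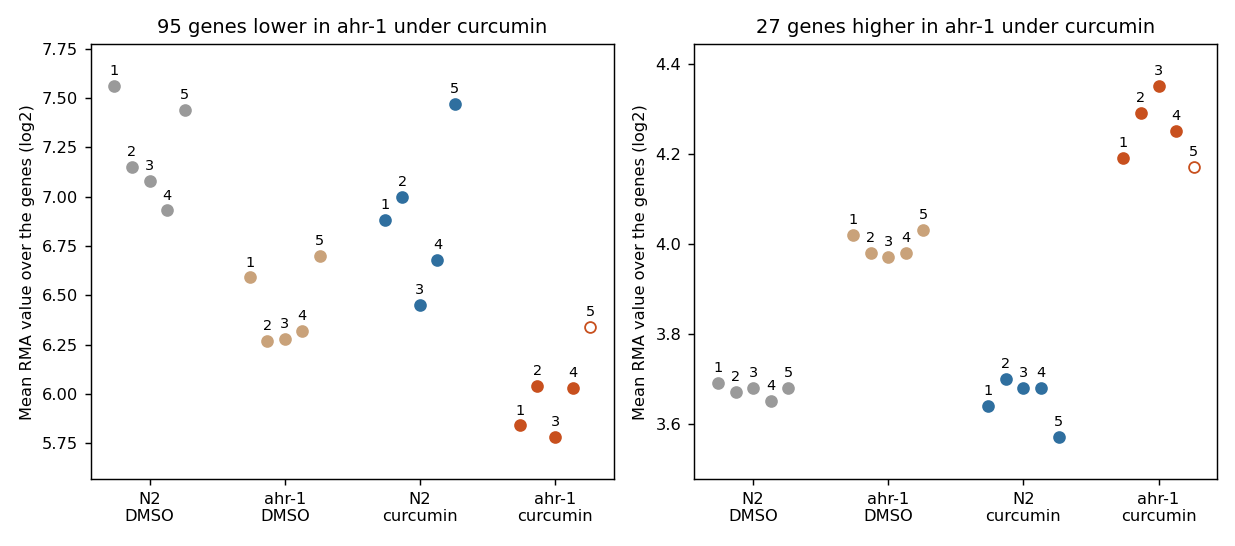
Mean log2 RMA value over the 95 lower genes and over the 27 higher genes outside the chromosome V neighbourhood described below, for each array, with the replicate number above each point and an open circle for the replicate left out. The genes were chosen by the curcumin arrays, and the lower genes spread from 6.45 to 7.47 over wild-type with curcumin while the higher genes spread from 3.57 to 3.70.

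The mean over the higher genes spread less between replicates of a group than that over the lower genes, but at lower levels. Over the 27 named higher genes outside the neighbourhood of chromosome V it was 3.57 to 3.70 in wild-type and 4.19 to 4.35 in *ahr-1(ju145)* with curcumin. The medians of these arrays were 4.22 to 4.28. Whether the low level accounts for the smaller spread was not tested, and single genes such as *B0511.11* spread more widely. Most of the 27 have a sequence name alone and no described function. The largest change of a named gene was in *B0511.11*, with 4.54, 5.06, 4.93, 4.11 and 3.42 in wild-type and 6.24, 6.18, 6.28 and 6.17 in *ahr-1(ju145)* (1.81, SE 0.28, adjusted p = 0.00497). The replicate left out had 6.22, level with the other *ahr-1(ju145)* arrays, and the difference with DMSO was 1.39 (SE 0.26, adjusted p = 0.0192).

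Among the higher genes with a known role was *nhj-1*, a gene of DNA double-strand break repair by non-homologous end joining. It had 5.86, 6.03, 6.47, 6.2 and 6.3 in wild-type and 7.02, 7.02, 7.52 and 7.32 in *ahr-1(ju145)*, with 7.27 in the replicate left out. The difference was 1.05 (SE 0.14, adjusted p = 0.000902), and it was 0.95 (SE 0.13, adjusted p = 0.00153) with DMSO. It was the single called gene of 4 in the end joining list, whose median was 0.07. That is 25% of the list, against 0.553% of all probe sets. The globin gene *glb-17* (0.53, SE 0.12, adjusted p = 0.0872) and the transporter gene *mrp-8* (0.33, SE 0.07, adjusted p = 0.0706) were higher as well, and both lost their call without replicate 1, 2 or 5 of wild-type or replicate 1, 2 or 3 of *ahr-1(ju145)*.

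Several genes with a sequence name alone were called under curcumin and had smaller differences with DMSO. The difference was 0.60 (SE 0.11) for *T01H3.9* against 0.14 (SE 0.10) with DMSO, 0.56 (SE 0.09) for *F54E4.8* against 0.13 (SE 0.08), and 0.52 (SE 0.11) for *K04B12.5* against 0.11 (SE 0.10). The adjusted p of the 3 under curcumin were 0.0233, 0.00687 and 0.048, but the difference between the strain effects was not called for any of them.

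A large share of the higher probe sets came from 1 neighbourhood of chromosome V. Between the genes *irld-53* and *Y45G12C.3*, a run of 54 genes in the reference gene order, 49 probe sets were measured, of which 36 had distinct values. Of these 49, 22 were called higher and 0 lower, against 0.174% and 0.379% of all probe sets. The 22 make up 43.1% of all higher probe sets, but some repeat the same values. In a fit with repeated values entered once, 15 of 40 higher probe sets lay in the neighbourhood. Of the 49, 46 lay above 0, where 46.4% of all probe sets lay below it. The neighbourhood was found from these calls, so its counts are a description. Of the 22, 21 carry several gene symbols in the annotation and are given no gene name here, and 1 carries a single symbol, *F56A4.3*. The run also includes *clec-209*, *C01B4.6* and *C01B4.7*, which the study followed by qPCR along with *F56A4.3*. They had no single-symbol probe set.

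The protein-coding gene *F56A4.3* had 6.77, 7.19, 6.88, 6.86 and 6.64 in wild-type and 8.49, 9, 8.92 and 8.25 in *ahr-1(ju145)*, with 7.8 in the replicate left out. The difference was 1.79 (SE 0.21, adjusted p = 0.000204), and it was 1.62 (SE 0.20, adjusted p = 0.000403) with DMSO. The other 5 single-symbol genes of the run, *Y19D10A.8*, *irld-35*, *nas-2*, *str-257* and *F56A4.10*, differed by 0.15, 0.07, 0.26, 0.10 and 0.43 without a call. The called probe sets of the neighbourhood ranged from 0.57 to 2.56. Within 30 genes on either side 22 and 20 genes were measured and 0 called, with medians of −0.02 before and 0.02 after it. With DMSO, 18 of the 49 probe sets were called higher.

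**Figure D4:**
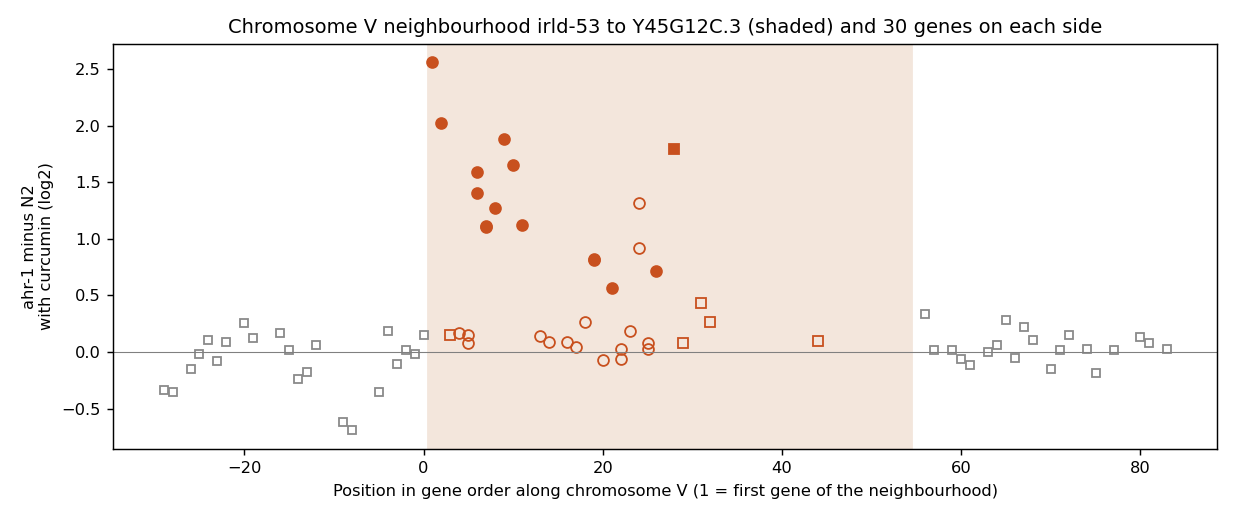
Strain difference under curcumin, on the log2 scale, of the distinct probe sets of the chromosome V neighbourhood (shaded) and of the genes within 30 genes on either side (grey), in gene order. Filled symbols are called, squares carry a single gene symbol and circles several, and the called probe sets reach from 0.57 to 2.56 while the flanking genes lie between −0.69 and 0.34.

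Detoxification genes, the classical targets of the receptor in mammals, were next compared. Of 74 cytochrome P450 genes, 67 UDP-glucuronosyltransferases, 48 glutathione S-transferases and 43 short-chain and aldehyde dehydrogenases measured, 0 were called in each family, with medians of 0.05, 0.02, 0.03 and 0.04. Of all probe sets 0.553% were called, and at that share families of this size can hold 0 calls. The counts of 0 thus do not set these families apart from other genes. Without replicate 3 of wild-type 2 UDP-glucuronosyltransferase genes were called lower. At an unadjusted p under 0.05, 2 P450 genes were higher and 4 lower, against 4.29% and 4.54% of all probe sets. The genes *ugt-9*, *ugt-29* and *ugt-45*, which encode UDP-glucuronosyltransferases, differed by 0.02 (SE 0.10), 0.01 (SE 0.07) and 0.00 (SE 0.11), with intervals at 95% of −0.20 to 0.24, −0.13 to 0.16 and −0.24 to 0.24. With DMSO the same genes differed by 0.34, 0.39 and 0.33, and of these *ugt-29* was called (adjusted p = 0.0122). The gene *ugt-57* had 5.88, 6.09, 5.45, 6.02 and 7.24 in wild-type and 5.13, 5.2, 4.52 and 5.14 in *ahr-1(ju145)*, without overlap. Its difference was −1.14 (SE 0.29, adjusted p = 0.119), and it was called lower in 5 alternatives, among them without replicate 3 of wild-type, with adjusted p down to 0.0176.

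The glutathione S-transferase gene *gst-4*, a target of the stress regulator SKN-1, had 8.18, 8.15, 8.44, 7.23 and 7.23 in wild-type and 8.51, 8.49, 8.59 and 7.4 in *ahr-1(ju145)*. In both strains replicates 1 to 3 lay about 1 unit above replicates 4 and 5, the replicate left out included with 7.34. The strain difference was 0.40 (SE 0.29, adjusted p = 0.763), and the 18 SKN-1 and glutathione genes had a median of 0.10 and 0 calls. The P450 genes *cyp-13B1* and *cyp-13A5* differed by −0.45 (SE 0.12, adjusted p = 0.13) and −0.64 (SE 0.22, adjusted p = 0.307), and *cyp-13A8* and *cyp-42A1* by 0.10 (SE 0.22) and −0.12 (SE 0.14). Heat shock, mitochondrial, superoxide dismutase and metal response lists also had 0 calls, which the share of 0.553% over all probe sets limits in the same way.

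Most of the lower calls under curcumin, and a smaller share of the higher ones, were called again in the DMSO arrays. With DMSO, 146 probe sets were higher and 384 lower in *ahr-1(ju145)*, 0.498% and 1.31% of all. Of the 162 called under curcumin, 109 were called with DMSO in the same direction (24 higher and 85 lower) and 0 in the opposite one. The share called in both was 0.0819% of all probe sets for higher and 0.29% for lower. These 109 are 67.3% of the curcumin calls and 20.6% of the 530 DMSO calls. By direction they are 47.1% of the higher and 76.6% of the lower curcumin calls. Of the 24 higher ones 18 lay in the neighbourhood of chromosome V, where some probe sets repeat the same values. The direction was the same for 157 of the 162 curcumin calls and for 502 of the 530 DMSO calls. The share of all probe sets with the same direction was not counted beside them. The probe sets lower with DMSO had a median of −0.65 there and of −0.47 under curcumin, and those higher with DMSO had 0.45 and 0.20. Over all probe sets the strain effects correlated with r = 0.55 (Spearman 0.37), as a description over features that share arrays within each comparison.

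**Figure D5:**
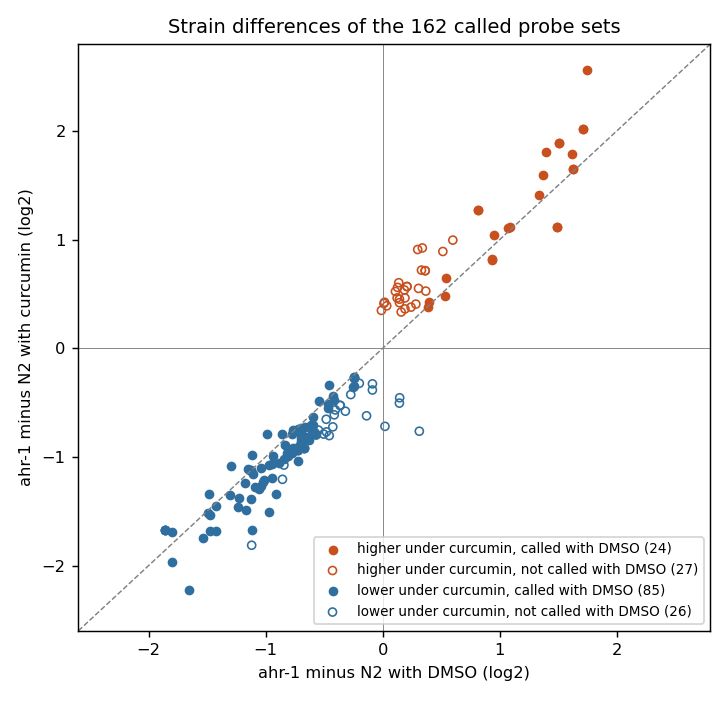
Strain difference of the 162 called probe sets under curcumin, on the vertical axis, against that with DMSO, on the horizontal axis, both on the log2 scale, with a dashed line of equal values. Filled circles were also called with DMSO (24 higher, 85 lower), and those lie on the same side of 0 on both axes.

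Genes called with DMSO and not under curcumin in the 19-array fit included some of the largest changes there. The gene *chtb-1* had 6.12, 6.38, 5.53, 6.2 and 7.95 in wild-type and 5.36, 5.34, 5.16 and 5.47 in *ahr-1(ju145)* with curcumin. These groups did not overlap, yet the difference of −1.11 (SE 0.37, adjusted p = 0.286) was not called, and it was −1.68 (SE 0.35, adjusted p = 0.0325) with DMSO. The patched-related gene *ptr-4* differed by −1.1 (SE 0.31, adjusted p = 0.172) under curcumin and −1.60 (SE 0.29, adjusted p = 0.0183) with DMSO, and it was also called under curcumin in 3 alternatives, among them without replicate 3 of wild-type, with adjusted p down to 0.0288. The differences of *T20F5.4* were −0.96 (SE 0.40, adjusted p = 0.46) and −1.66 (SE 0.38, adjusted p = 0.0444).

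Whether the strain effect itself differed between curcumin and DMSO was tested as an interaction. At an adjusted p under 0.1, 0 of 29317 probe sets were called, with a lowest adjusted p of 0.85, and 985 (3.36%) had an unadjusted p under 0.05. The genes with the lowest p among those called in either comparison were *srh-88*, a chemoreceptor gene, with −0.24 under curcumin and 0.27 with DMSO (difference −0.51, SE 0.10, unadjusted p = 8.7e-05, adjusted p = 0.85), the nuclear receptor gene *nhr-239* with −0.14 and 0.36, and *clc-23* with 0.20 and −0.57. Their levels were low, with *srh-88* between 2.25 and 2.81 in the 9 curcumin arrays. For *egl-46* the difference between the strain effects was −0.57 (SE 0.52), and for *hch-1*, which was called under curcumin alone, it was −0.69 (SE 0.49). A missing call does not show that the strain effects were alike. Without replicate 5 of curcumin-treated wild-type, 1 probe set without a gene symbol was called (difference −1.23, limma adjusted p = 0.0026).

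The replicate left out was finally set beside the calls it had not entered. It lay above every wild-type array with curcumin in 44 of the 51 higher probe sets, against 6286 of all 29317, and below every one in 69 of the 111 lower probe sets, against 4742 of all 29317. In 159 of the 162 it lay on the called side of the wild-type mean, a side not counted over all probe sets. The same wild-type arrays had made the calls, which fixes these counts in part. With it in the fit, 78 probe sets were higher and 139 lower, and 136 of the 162 calls were shared.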

How the data were processed

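The authors hybridized total RNA of whole worms to Affymetrix C. elegans Gene 1.0 ST arrays and deposited log2 expression values made by RMA, which corrects the background, normalizes all arrays to 1 distribution and summarizes the probes of each probe set. Of the deposited tables, 3 that hold the authors' own fold changes and p-values were not used. No source used here names the genome build of the array. Symbols came from the platform annotation (25546 of 29317 probe sets had 1 symbol, 646 several, 3125 none), and gene order from RefSeq (WBcel235).

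The group means of 19 arrays were fitted with limma 3.58.1 in R 4.3.3 (15 residual and 3.38 prior degrees of freedom), and p-values were two-sided and adjusted by Benjamini-Hochberg over all probe sets, with a threshold of 0.1. The script was tested on simulated data. Genes were named by rule: *ahr-1* and *aha-1*, the 15 higher and 15 lower single-symbol genes with the largest change among called genes whose strain arrays did not overlap, up to 4 called members per list, the genes the study follows, and 10 by the difference between the strain effects. For the genes named by size of change, the rule thus fixed that the strains did not overlap. The members and lists were chosen with earlier results of these data known. A gene stood for a list, or was taken from the study, through its single-symbol probe set. The study's genes *clec-209*, *C01B4.6* and *C01B4.7* had none and were left out. Alternatives were other sets of arrays, leaving out each array, array weights, a replicate block, further normalization, probe set filters, thresholds and an embryo marker covariate. The labels number the arrays of each group as replicates, which the study's methods describe as independent. The number of arrays limits the precision, and no scan dates were at hand to test as batches.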

Additional observations from a re-analysis of the deposited data

Results flagged for a closer look

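The array set aside, replicate 5 of *ahr-1(ju145)* on curcumin, holds data that the comparison did not use. It lay above every wild-type array with curcumin in 44 of the 51 higher probe sets, against 6286 of all 29317. It lay below every one in 69 of the 111 lower probe sets, against 4742 of all 29317. The same wild-type arrays had made the calls, which fixes both counts in part. Of the 44, 20 came from the neighbourhood of chromosome V, where some probe sets repeat the same values.

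Among the 162 sets of 4 or 5 curcumin arrays of a named gene or group examined, 8 held an array far from the rest, 5 in *ahr-1(ju145)* and 3 in wild-type, where chance alone gives about 1 in 20. In *ahr-1(ju145)*, replicate 4 had 5.34 for *dyf-7* (the others 4.71 to 4.79), 5.08 for *mrp-8* (5.19 to 5.21) and 7.4 for *gst-4* (8.49 to 8.59). Replicate 1 had 4.25 for *atf-2* (4.76 to 4.79), and replicate 3 had 4.52 for *ugt-57* (5.13 to 5.2). In wild-type, replicate 3 had 4.37 for *cyp-13A8* (3.41 to 3.66) and 3.52 for *T26C5.2* (3.69 to 3.73), and replicate 1 had 2.81 for *srh-88* (2.43 to 2.54).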

How the results depend on the processing

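Of the 73 named genes 50 were called, and 0 of these changed direction under the 22 alternatives, of which leaving out dim probe sets did not hold every gene. Of the 50, 6 kept their call in every alternative that held them, 14 lost it in 1 to 5 and 30 in more. Of the genes not called, *ugt-57*, *ptr-4* and *cyp-13B1* were called in 5, 3 and 2 alternatives. The higher and lower probe sets under curcumin numbered 51 and 111. They numbered 26 and 15 with the 9 curcumin arrays alone, 29 and 32 at an adjusted p under 0.05, and 102 and 325 with the embryo marker covariate. The higher probe sets numbered 78 with all 20 arrays, 80 with array weights and 24 over single-symbol probe sets. The lower ones numbered 68 after further quantile normalization and 172 without dim probe sets. Leaving out 1 array gave 26 to 74 higher and 16 to 268 lower probe sets. The calls shared with DMSO, 109, became 45 at an adjusted p under 0.05, 278 with the covariate and 38 to 207 with 1 array left out. The difference between the strain effects had 0 calls under every alternative but 1, with 1 call without replicate 5 of curcumin-treated wild-type. The cause of these moves was not tested. The fit of 9 arrays gives neither the DMSO overlap nor the difference.

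The deviations of the 4 same-numbered pairs of curcumin arrays all correlated best with their own number, with 0.0843, 0.134, 0.200 and 0.229. The criterion for a paired main fit, every correlation over 0.1, was missed by the pair with 0.0843. This does not show that the arrays were unpaired. The 5 DMSO pairs had 0.274, 0.166, 0.114, 0.431 and 0.334, and each also correlated best with its own number. The main fit holds no term for the replicate numbers, so any such pairing was ignored in it. With a replicate block the counts were 121 higher and 247 lower, with 245 calls shared with DMSO and 158 of the 162 calls kept. The block added *ugt-57*, *ptr-4* and *cyp-13B1* and dropped *glb-17* and *C56E6.14* among the named genes, and 2 UDP-glucuronosyltransferase genes and 1 P450 gene were lower in it. Signal near background and the number of arrays limit the genes with low levels.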

Other observations

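Under curcumin some genes split the replicates in the same way in both strains, a pattern seen after the values were examined. Over the 10 curcumin arrays, replicates 1 to 3 lay entirely above replicates 4 and 5 in 332 probe sets and entirely below in 304, and in the DMSO arrays the counts were 254 and 203. The gene *dod-24*, known as a target of the insulin pathway, had 10.43 to 10.77 in replicates 1 to 3 and 9.09 to 9.37 in replicates 4 and 5. The glutathione S-transferase gene *gst-30* had 5.48 to 6.11 and 4.71 to 5.15. The P450 gene *cyp-35A2* ran the other way, with 4.73 to 5.88 and 6.16 to 7.03. For *gst-4* the strain difference was 0.27 within replicates 1 to 3 and 0.17 for replicate 4 of *ahr-1(ju145)* against replicates 4 and 5 of wild-type.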
